A study of Mus musculus with 4 samples.

Results

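The ATF4 stress response regulators described here are 9 genes, Asns, Trib3, Chac1, Ddit3, Atf3, Atf4, Atf5, Sesn2 and Nupr1, out of 46078 genes in the deposited count table. They were chosen by name as a functional group, with earlier results of these data known. Their counts set beside all tested genes are therefore descriptive and no independent support. All 9 were found in both deposited tables and passed the filter on low counts, which left 12348 tested genes. The levels come from RNA sequencing of MLE-12, an immortalised mouse alveolar epithelial cell line, in a study of Lingo1 in epithelial wound repair. The 4 libraries, 1 per condition, are Lingo1 KO cells 24 hours after a scratch wound, Lingo1 KO cells left unscratched, wild-type (WT) cells 24 hours after a scratch and WT cells left unscratched. In the tables S was taken for scratched and N for unscratched, a reading on which each scratch statement rests. Whether the knockout line is 1 clone is not given in the sources used here. Lingo1 mRNA itself stood at 41.4 and 41.2 CPM in the scratched and unscratched libraries labelled knockout, against 42.9 and 46.4 CPM in the scratched and unscratched WT libraries, so the genotype is given as labelled in every comparison. CPM denotes the count scaled to a common library size after a TMM factor.

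ATF4 is a basic leucine zipper transcription factor at the centre of the integrated stress response. Kinases that sense amino acid shortage, misfolded protein in the endoplasmic reticulum, double-stranded RNA or heme shortage phosphorylate the initiation factor eIF2alpha, which lowers protein synthesis in general while the ATF4 and ATF5 messages are translated more. ATF4 then raises genes for amino acid synthesis and uptake, and with its partner CHOP, the product of Ddit3, it also raises genes that restrain growth or lead to cell death. Since much of this control acts on translation, messenger RNA shows only the transcript side of the pathway, and no protein was measured here.

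In mm10 coordinates the effector genes span Asns (ENSMUSG00000029752) at chr6:7675169-7693254 on the minus strand, Trib3 (ENSMUSG00000032715) at chr2:152337422-152344032 on the minus strand, Chac1 (ENSMUSG00000027313) at chr2:119351229-119354381 on the plus strand, Sesn2 (ENSMUSG00000028893) at chr4:132492032-132510501 on the minus strand and Nupr1 (ENSMUSG00000030717) at chr7:126623249-126630861 on the minus strand. The transcription factor genes span Atf4 (ENSMUSG00000042406) at chr15:80255184-80257541 on the plus strand, Atf5 (ENSMUSG00000038539) at chr7:44812256-44816658 on the minus strand, Ddit3 (ENSMUSG00000025408) at chr10:127290774-127296288 on the plus strand and Atf3 (ENSMUSG00000026628) at chr1:191170296-191218039 on the minus strand.

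The 9 genes spanned a wide range of levels. On the length-scaled RPKM values of the authors, which allow genes to be set side by side, Atf4 was the highest at 95.5 to 133 RPKM over the 4 libraries. Asns, which makes asparagine from aspartate and glutamine, followed at 49.6 to 83.2 RPKM. Atf5, a bZIP factor translated in the same manner as ATF4, lay at 15.1 to 20.8 RPKM. Ddit3 lay at 10.2 to 15.4 RPKM, and Trib3, a pseudokinase that binds AKT and ATF4, at 7.94 to 12.7 RPKM. The other 4 genes overlapped in range: Nupr1, a small stress-induced chromatin protein, at 5.72 to 10.9, Chac1, an enzyme that breaks down glutathione, at 5.25 to 8.38, the repressive bZIP factor Atf3 at 5.61 to 7.24, and Sesn2, a leucine sensor that restrains mTORC1, at 5.37 to 6.87 RPKM. All 9 were therefore present in every library, from 254 counts for Chac1 in unscratched knockout-labelled cells up to 10140 counts for Atf4 in scratched knockout-labelled cells.

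**Figure D1:**
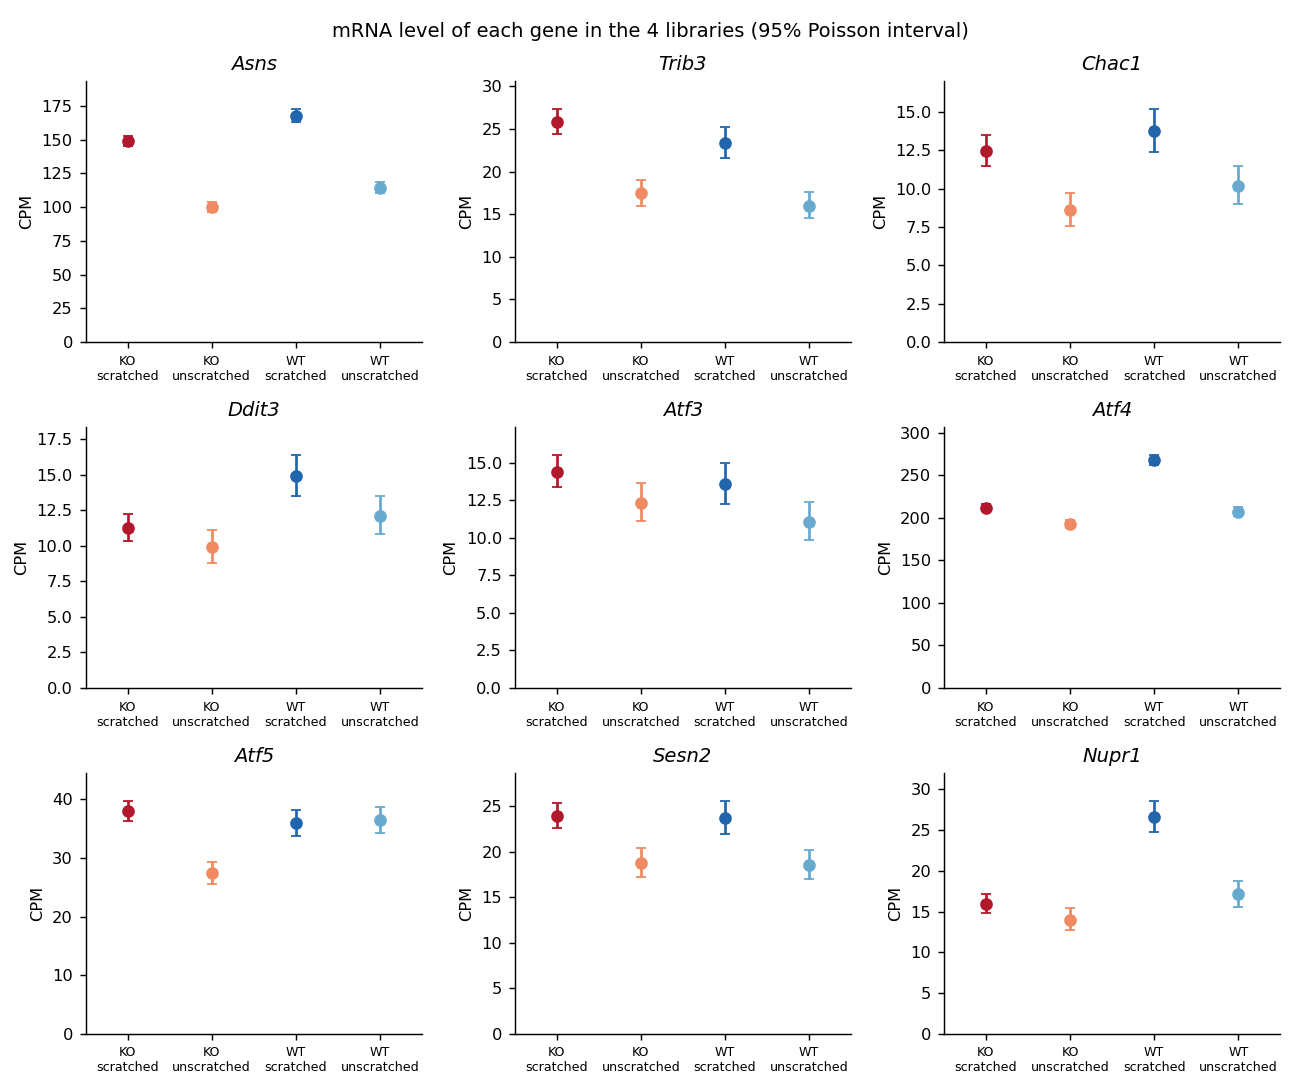
Level of each of the 9 genes in CPM (linear axis from 0) in the 4 libraries, with KO standing for the libraries labelled Lingo1 KO. Points are single libraries and bars are exact 95% Poisson intervals on the count, without any replicate spread. Asns reaches 149 and 168 CPM in the scratched knockout-labelled and WT libraries, and Atf5 is low at 27.4 CPM in the unscratched knockout-labelled library alone.

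The library totals were 48333801 counts in scratched and 29533746 in unscratched knockout-labelled cells, and 27907279 in scratched and 26903429 in unscratched WT cells. A floor of 3 counts corresponds to between 0.0626 and 0.111 CPM. Intervals and floors cover counting error only, and the reads carry no molecular identifiers. Of 13 alveolar type 2 and lung epithelial markers, 9 were at 1 CPM or more in every library, with Nkx2-1, a lung transcription factor, at 128 to 163 CPM. Lamp3 and Krt18 were under 1 CPM in every library, and the surfactant genes Sftpa1 and Sftpd had no reads. The summed level of the 13 markers was 1677 and 1635 CPM in scratched and unscratched knockout-labelled cells and 1605 and 1590 CPM in scratched and unscratched WT cells. The surfactant gene Sftpb differed by genotype, at 93.5 and 107 CPM in scratched and unscratched knockout-labelled cells and 22.9 and 25.4 CPM in scratched and unscratched WT cells. Fibroblast markers summed to 2660 and 2910 CPM in scratched and unscratched knockout-labelled cells and to 2837 and 2868 CPM in scratched and unscratched WT cells, most of it decorin, with 3 of 7 at 1 CPM or more in every library and Tcf21 without reads. Among them Col1a1 stood at 177 and 197 CPM in scratched and unscratched knockout-labelled cells and at 16.5 and 21.3 CPM in scratched and unscratched WT cells. Only Tek among 5 endothelial genes, at 179 to 219 CPM, and only Cd68 among 6 leukocyte genes, at 1.57 to 1.90 CPM, reached 1 CPM in every library. Cdh5, Ptprc and Adgre1 had no reads. Mitochondrial transcripts took 0.828% and 0.721% of counts in scratched and unscratched knockout-labelled cells and 0.710% and 1.03% in scratched and unscratched WT cells. The part of cell makeup and of RNA quality in the results was not tested, and fewer cells of a type and less RNA per cell cannot be told apart in such bulk libraries.

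Promoters of 5 of the 9 genes carried the core letters of the C/EBP-ATF response element, the sequence that ATF4 binds as a dimer with a C/EBP factor. The core TGATGNAA was searched on both strands of the 300 bases from 250 before to 50 after each RefSeq start (build GRCm38.p6, the same assembly as mm10). All 9 genes matched, with 10 windows since Atf5 has a pair of starts. The core lay in the windows of Asns, Trib3, Chac1, Atf3 and Nupr1. The Atf3 and Nupr1 windows lie inside the gene spans given above. The 5′ ends of those spans, at chr1:191218039 and chr7:126630861, were not searched. Across all 32851 windows of the same length, 3.97% held it. A second core, TGACGNAA, was found in the Chac1 and Atf3 windows and in 1.59% of all windows, and it shares no bases with the first core in either window. The endoplasmic reticulum stress element (CCAAT, then 9 bases of any kind, then CCACG) was in none of the 10 windows and in 0.119% of all. These matches describe letters and not binding, and the windows of Atf4, Atf5, Ddit3 and Sesn2 held none of the 3 motifs. The motifs were chosen after the windows had been seen. The 5 windows with a match are shown because they include those of Asns, Trib3 and Chac1, which had the highest additive scratch effects of the 9, each 5′ to 3′ on the strand of the gene with the matches in capitals.
Asns, chr6:7693160-7693459, minus strand: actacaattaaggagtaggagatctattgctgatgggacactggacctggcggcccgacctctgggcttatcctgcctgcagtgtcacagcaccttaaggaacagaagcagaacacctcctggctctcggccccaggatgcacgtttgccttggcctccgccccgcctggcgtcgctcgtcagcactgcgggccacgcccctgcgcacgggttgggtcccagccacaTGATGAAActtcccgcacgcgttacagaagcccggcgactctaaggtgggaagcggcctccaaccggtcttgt
Trib3, chr2:152344011-152344310, minus strand: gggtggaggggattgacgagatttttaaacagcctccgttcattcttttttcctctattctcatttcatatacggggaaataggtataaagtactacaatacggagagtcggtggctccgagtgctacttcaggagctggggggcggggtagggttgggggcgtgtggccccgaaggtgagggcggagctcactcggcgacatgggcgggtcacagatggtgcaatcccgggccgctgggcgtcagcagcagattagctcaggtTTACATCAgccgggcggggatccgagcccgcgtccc
Chac1, chr2:119350992-119351291, plus strand: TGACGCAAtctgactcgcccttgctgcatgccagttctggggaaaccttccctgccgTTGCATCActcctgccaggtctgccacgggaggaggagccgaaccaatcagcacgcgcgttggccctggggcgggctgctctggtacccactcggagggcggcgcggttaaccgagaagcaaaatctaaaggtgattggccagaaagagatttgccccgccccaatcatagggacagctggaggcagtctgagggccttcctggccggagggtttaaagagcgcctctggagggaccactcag
Atf3, chr1:191183284-191183583, minus strand: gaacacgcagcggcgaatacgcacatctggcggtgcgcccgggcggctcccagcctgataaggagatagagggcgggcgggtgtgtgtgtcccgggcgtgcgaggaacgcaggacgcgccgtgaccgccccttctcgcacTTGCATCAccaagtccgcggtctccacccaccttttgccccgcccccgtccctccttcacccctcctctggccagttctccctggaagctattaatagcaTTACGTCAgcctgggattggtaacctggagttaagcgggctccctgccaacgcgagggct
Nupr1, chr7:126625421-126625720, minus strand: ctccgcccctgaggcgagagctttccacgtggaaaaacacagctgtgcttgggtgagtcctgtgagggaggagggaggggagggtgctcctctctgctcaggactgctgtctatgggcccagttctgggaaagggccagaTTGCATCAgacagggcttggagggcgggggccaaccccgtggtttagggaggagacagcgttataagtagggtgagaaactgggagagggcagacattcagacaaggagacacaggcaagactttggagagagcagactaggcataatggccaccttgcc
The core of Asns reads TGATGAAA on the gene's strand and begins 23 bases before the start. In Chac1, Atf3 and Nupr1 it reads TTGCATCA, the other strand's form, and begins 193, 110 and 110 bases before the start. That of Trib3 reads TTACATCA and begins 14 bases after the start.

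The scratch comparison asks how the genes stood 24 hours after wounding relative to unwounded cells of the same genotype. All 9 genes were higher after the scratch in knockout-labelled cells and 8 of 9 in WT cells, Atf5 being the exception, at modest ratios of up to 1.56. Of all tested genes 53.0% were higher in knockout-labelled and 54.5% in WT cells. In an additive model of genotype and scratch over the 4 libraries, Asns, Trib3, Chac1, Nupr1, Sesn2 and Atf4 rose with the scratch, 6 of the 9, and 0 fell (quasi-likelihood test of edgeR, Benjamini-Hochberg adjustment over all tested genes). The same test called 1.69% of all tested genes higher and 1.64% lower. None of the 9 was lower at an unadjusted p under 0.05 by edgeR, DESeq2 or limma. The model has 1 residual degree of freedom, and without replicate cultures its p-values speak of these 4 libraries alone. Its SE and p-values use a spread that is mostly borrowed from other genes. DESeq2's Wald test passed 1 of the 9 (Asns), and limma on the RPKM values passed 0 of 14683 genes. At an unadjusted p under 0.05 limma had 1660 genes, among them 8 of the 9, all higher.

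Among the genes that act downstream of ATF4, Asns had the lowest adjusted p. It stood at 149 CPM in scratched and 99.9 CPM in unscratched knockout-labelled cells, and at 168 CPM in scratched and 114 CPM in unscratched WT cells. Both scratched libraries lay above both unscratched ones, and no neighbours in that order overlapped in their counting intervals. The ratio was 1.49 (95% counting interval 1.43 to 1.56) in knockout-labelled and 1.47 (1.40 to 1.54) in WT cells. The additive log2 fold change was 0.57 ± 0.05 (SE; adjusted p = 1.63e-08, edgeR quasi-likelihood test), the second lowest adjusted p among all 12348 genes. Only 11 tested genes, Asns included, had a log2 response as high as the smaller of its values, 0.55, in both genotypes, which share no library.

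Trib3 and Chac1 followed the same course at lower counts. Trib3 was at 25.8 CPM in scratched and 17.5 CPM in unscratched knockout-labelled cells, and at 23.4 CPM in scratched and 16.0 CPM in unscratched WT cells. Its ratios were 1.48 (1.33 to 1.64) and 1.46 (1.29 to 1.65) in knockout-labelled and WT cells, and the additive change was 0.56 ± 0.08 (adjusted p = 4.60e-05, edgeR). Chac1 was at 12.4 CPM in scratched and 8.58 CPM in unscratched knockout-labelled cells, and at 13.7 CPM in scratched and 10.2 CPM in unscratched WT cells. For both genes the scratched libraries were the highest pair. Ratios for Chac1 were 1.45 (1.25 to 1.69) and 1.35 (1.15 to 1.58) in knockout-labelled and WT cells, with an additive change of 0.48 ± 0.10 (adjusted p = 0.00412, edgeR).

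Sesn2 was nearly the same in both genotypes. The gene was at 24.0 CPM in scratched and 18.8 CPM in unscratched knockout-labelled cells, and at 23.8 CPM in scratched and 18.6 CPM in unscratched WT cells. The scratched pair lay above the unscratched pair, and within each pair the libraries did not differ beyond their counting intervals. Its ratio was 1.28 in both (1.15 to 1.42 in knockout-labelled, 1.14 to 1.44 in WT cells), and the additive change was 0.36 ± 0.08 (adjusted p = 0.00769, edgeR).

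Nupr1 had a larger scratch ratio in WT than in knockout-labelled cells, a difference that was not tested. It stood at 16.0 CPM in scratched and 14.0 CPM in unscratched knockout-labelled cells, and at 26.6 CPM in scratched and 17.1 CPM in unscratched WT cells. The scratched WT library was above the other 3. The ratio was 1.14 (1.01 to 1.29) in knockout-labelled and 1.56 (1.38 to 1.75) in WT cells, and the additive change was 0.42 ± 0.09 (adjusted p = 0.00733, edgeR). Nupr1 in WT cells was the only one of the 9 to pass the rule for single library pairs, at least 1.5-fold with a counting interval that excludes 1, which 0.526% of tested genes passed upward in WT cells. In knockout-labelled cells 0 of the 9 passed that rule upward, where 0.526% of tested genes did, and 0 passed it downward in either genotype (0.696% of tested genes in knockout-labelled and 1.85% in WT cells).

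**Figure D2:**
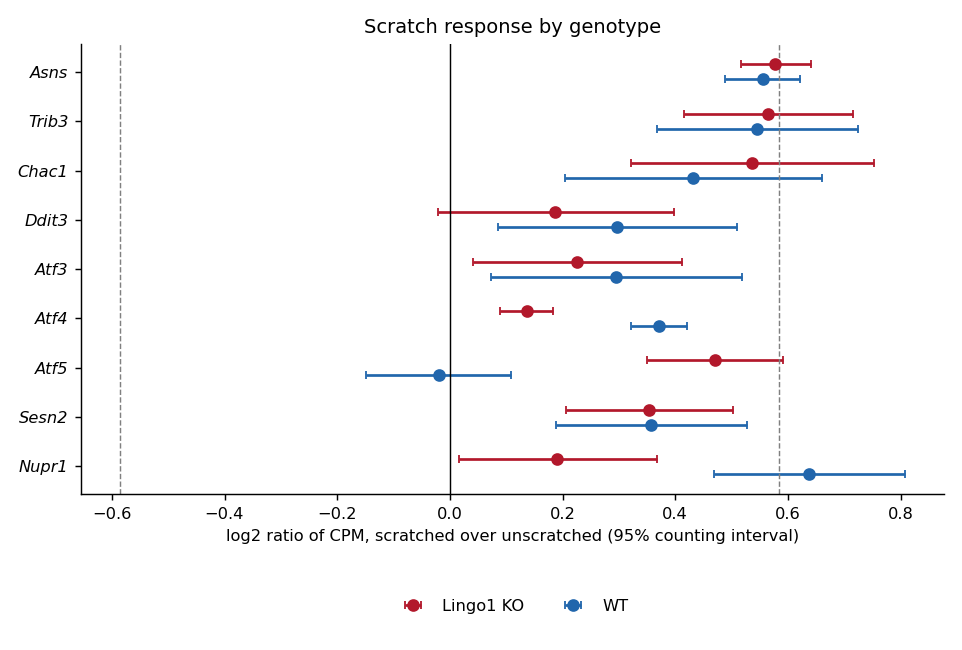
Log2 ratio of CPM, scratched over unscratched, for each of the 9 genes in the cells labelled Lingo1 KO and in WT cells, with exact 95% counting intervals. Dashed lines mark 1.5-fold. Asns, Trib3, Chac1 and Sesn2 have like values in both genotypes, while Atf4 and Nupr1 are higher in WT and Atf5 is higher in knockout-labelled cells.

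The 4 transcription factors had the lowest additive scratch effects of the 9, but not in every single genotype: in knockout-labelled cells Atf5, at 0.47 on the log2 scale, was above Sesn2 at 0.35 and Nupr1 at 0.19. Atf4 stood at 212 CPM in scratched and 193 CPM in unscratched knockout-labelled cells, and at 268 CPM in scratched and 207 CPM in unscratched WT cells. Scratched WT cells had the highest level, and scratched knockout-labelled cells did not differ from unscratched WT cells beyond the counting interval. The ratio was 1.10 (1.06 to 1.14) in knockout-labelled and 1.29 (1.25 to 1.34) in WT cells, and Atf4 rose by 0.25 ± 0.06 on the log2 scale in the additive model (adjusted p = 0.00873, edgeR).

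Atf5 had a low level in 1 library only. It was at 38.0 CPM in scratched and 27.4 CPM in unscratched knockout-labelled cells, and at 36.0 CPM in scratched and 36.5 CPM in unscratched WT cells. The unscratched knockout-labelled library was low and the other 3 did not differ beyond their counting intervals between neighbours. The ratio was 1.39 (1.27 to 1.51) in knockout-labelled and 0.986 (0.902 to 1.08) in WT cells, with an additive change of 0.23 ± 0.08 that did not pass (adjusted p = 0.120, edgeR). In the annotation Atf5 shares 571 bases with Nup62 and 272 with Il4i1 on the other strand, and since no source used here states the strand setting of the counting, its count is uncertain. Il4i1 had 98 to 184 counts per library, against 812 to 1821 for Atf5.

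Ddit3 and Atf3 did not pass the additive test. Ddit3 was at 11.3 CPM in scratched and 9.90 CPM in unscratched knockout-labelled cells, and at 14.9 CPM in scratched and 12.1 CPM in unscratched WT cells, with an additive change of 0.24 ± 0.10 (adjusted p = 0.199, edgeR). Its last 68 bases overlap the gene Mars on the other strand, which had 2433 to 4805 counts per library, and a further annotated Ddit3 gene at the same place was not used here, so its count is uncertain too. Atf3 was at 14.4 CPM in scratched and 12.3 CPM in unscratched knockout-labelled cells, and at 13.6 CPM in scratched and 11.1 CPM in unscratched WT cells, with an additive change of 0.26 ± 0.10 (adjusted p = 0.147, edgeR). Neighbours in the order of the 4 Atf3 levels did not differ beyond their counting intervals. For both genes each scratched library was above the unscratched library of its genotype. The ratios of Ddit3 were 1.14 (0.986 to 1.32) in knockout-labelled and 1.23 (1.06 to 1.42) in WT cells. Those of Atf3 were 1.17 (1.03 to 1.33) in knockout-labelled and 1.23 (1.05 to 1.43) in WT cells. Within each genotype the counting interval of Atf3 thus excluded 1, while that of Ddit3 did so in WT cells only.

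Set against all tested genes, the group stood toward the high end of the scratch response. The median log2 difference of the 9 was 0.35 in knockout-labelled and 0.37 in WT cells, against 0.01 and 0.02 over all tested genes. The median size of a difference, regardless of sign, was 0.08 over all genes in knockout-labelled and 0.11 in WT cells. Between 0.356% (Asns) and 4.14% (Atf5) of tested genes had a higher additive scratch effect than each of the 9. Higher levels after the scratch in both genotypes were seen for 8 of the 9 genes and for 34.4% of all tested genes.

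**Figure D3:**
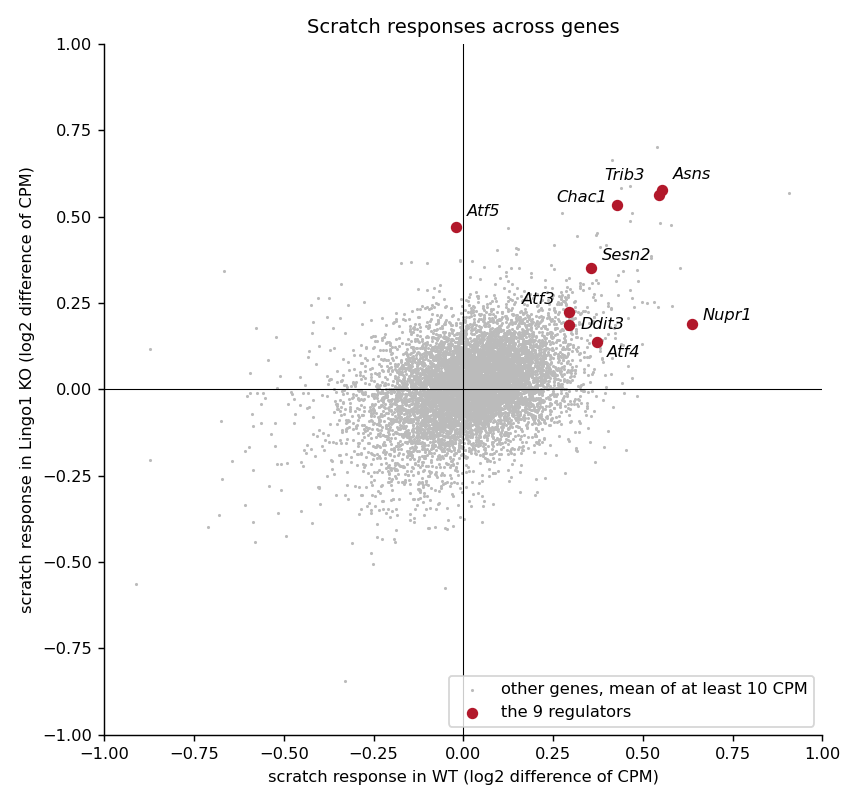
Scratch response (log2 difference of CPM, scratched minus unscratched) in WT cells on the horizontal axis and in cells labelled Lingo1 KO on the vertical axis. Grey points are the other tested genes with a mean of at least 10 CPM, 13 of which lie beyond the axes, and red points are the 9 regulators. Asns, Trib3 and Chac1 sit at the upper right edge of the cloud, and Atf5 sits high on the vertical axis with a WT value of -0.02.

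Most other genes known as ATF4 targets were higher after the scratch as well, and the calls in neighbouring arms of the stress response were near the share over all tested genes. Of 30 further ATF4 target genes, also listed with earlier results of these data known, 28 were tested. By edgeR 19 of them rose with the scratch, 1 fell and 8 did not pass. The median additive change of the list was 0.32, against 0.01 over all tested genes. DESeq2 passed 13 of the 28 and limma on RPKM passed 0. At an unadjusted p under 0.05 edgeR had 26 of the 28, 25 higher and 1 lower, beside 2043 of all 12348 tested genes in either direction. The largest rises were those of Slc7a5 (0.53 ± 0.05), the light chain of a leucine transporter, Mthfd2 (0.52 ± 0.05), a mitochondrial folate enzyme, Psph (0.51 ± 0.07), the last enzyme of serine synthesis, and Eif4ebp1 (0.49 ± 0.07), an inhibitor of cap-dependent translation. Slc7a5 stood at 173 CPM in scratched and 115 CPM in unscratched knockout-labelled cells, and at 166 CPM in scratched and 120 CPM in unscratched WT cells. Ddit4, an inhibitor of mTORC1, fell (-0.23 ± 0.06); it is named after its value was seen. Gdf15 and Fgf21 were under 1 CPM in every library. The promoter core TGATGNAA was in the windows of 5 of the 16 rising genes with a window and of 2 of the 6 others with one. Across all windows 3.97% held it. As the core was found in both groups, it is not read as going with the rise.

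The other 5 lists gave 0 or 1 call each for the scratch, near the 1.69% of all tested genes called higher and 1.64% called lower, so nothing particular to them is read from these counts. Their unadjusted counts likewise stand beside 2043 of all 12348 tested genes at an unadjusted p under 0.05 by edgeR, in either direction. Of 14 genes for eIF2alpha, its kinases and their regulators, its phosphatase subunits and eIF2B, 0 passed by edgeR, DESeq2 or limma, with 3 higher at an unadjusted p under 0.05 by edgeR and a list median of 0.04. Eif2ak3, which encodes the endoplasmic reticulum kinase PERK, was at 87.8 CPM in scratched and 90.0 CPM in unscratched knockout-labelled cells, and at 101 CPM in scratched and 97.1 CPM in unscratched WT cells. Of 19 genes of the IRE1 and ATF6 arms, which raise chaperones in the endoplasmic reticulum, 0 passed by any of the 3 tools, with 3 higher at an unadjusted p under 0.05 by edgeR and a median of 0.04. The 8 genes tied to CHOP in cell death and redox balance gave 0 calls by any of the 3 tools, with 2 lower at an unadjusted p under 0.05 and a median of -0.06. Of 12 bZIP partners, Jund alone passed, downward (-0.30 ± 0.07, adjusted p = 0.00977, edgeR), and neither DESeq2 nor limma passed it. It was at 161 CPM in scratched and 166 CPM in unscratched knockout-labelled cells, and at 158 CPM in scratched and 233 CPM in unscratched WT cells. The 8 tested paralogs of the 9 genes, such as Sesn1, Sesn3 and Trib1, gave 0 calls by any of the 3 tools, with 1 lower at an unadjusted p under 0.05 by edgeR.

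**Figure D4:**
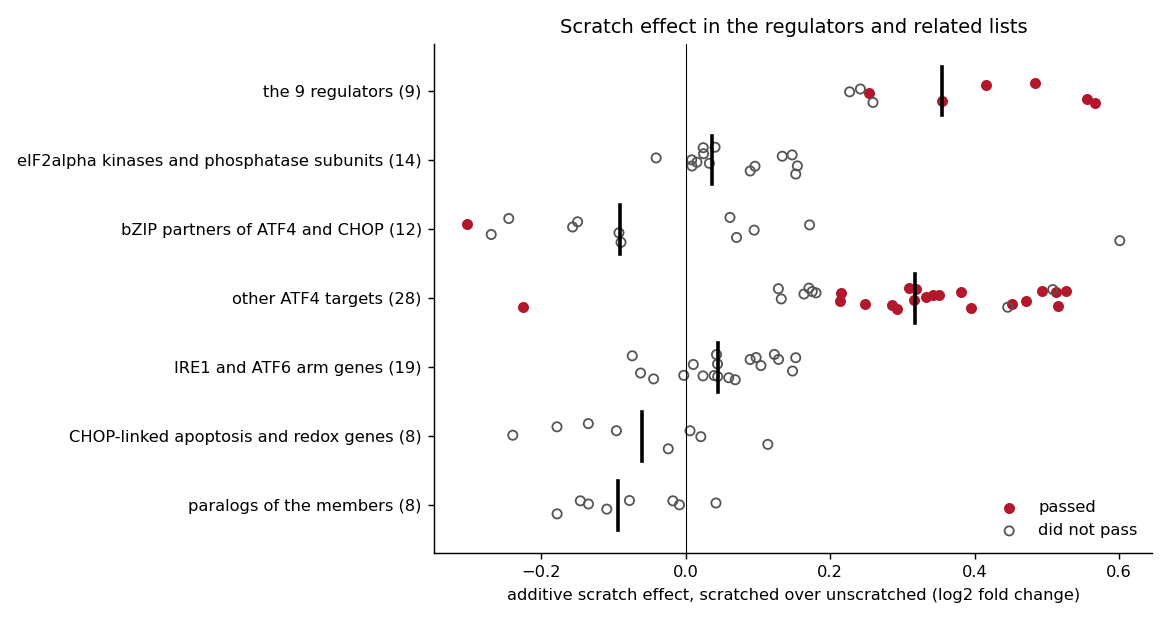
Additive scratch effect (log2 fold change, scratched over unscratched) of each tested gene in the 9 regulators and in 6 related lists, with the number of tested genes in brackets. Filled points passed edgeR's quasi-likelihood test, open points did not, and black bars are medians, which are 0.36 for the regulators and 0.32 for the other ATF4 targets and lie between -0.09 and 0.04 for the other 5 lists.

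The genotype comparison asks how the 9 genes stood in knockout-labelled cells relative to WT cells in the same state, with the direction taken from the labels. In the additive model Nupr1, Ddit3, Atf4 and Asns, 4 of the 9, were lower past the edgeR threshold and 0 were higher, with 0 higher at an unadjusted p under 0.05 by edgeR, DESeq2 or limma. The same test called 12.4% of tested genes lower and 14.0% higher. DESeq2 passed 1 of the 9, Nupr1, and limma on RPKM passed 2, Nupr1 and Ddit3. Of the 9, 5 were lower in both states (35.4% of all tested genes) and 3 were higher in both (37.4%), although Sesn2, one of the 3, was at zero difference after the scratch when scaled by total counts. Sftpb and Col1a1, given above, also differed between the genotypes, and their part in these results was not tested. These comparisons use the same 4 libraries as the scratch responses.

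Nupr1 had the largest genotype difference of the 9. After the scratch the knockout-labelled library had 16.0 CPM against 26.6 CPM in WT, a ratio of 0.600 (0.541 to 0.664), the only one of the 9 past the 1.5-fold rule, which 1.83% of tested genes passed downward and 3.42% upward. Without a scratch the levels were 14.0 CPM in knockout-labelled and 17.1 CPM in WT cells, a ratio of 0.817 (0.714 to 0.935). None of the 9 passed the rule in the unscratched pair, where 2.94% of tested genes passed downward and 3.48% upward. The additive change was -0.53 ± 0.09 (adjusted p = 4.75e-05, edgeR).

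Ddit3, Atf4 and Asns differed less. For Ddit3, the CHOP gene, the ratio of knockout-labelled to WT was 0.756 (0.664 to 0.861) after the scratch and 0.816 (0.694 to 0.958) without it, and the additive change was -0.35 ± 0.10 (adjusted p = 0.00742, edgeR). Atf4 had ratios of 0.790 (0.767 to 0.815) after the scratch and 0.930 (0.896 to 0.965) without it, and fell by 0.22 ± 0.06 on the log2 scale (adjusted p = 0.00378, edgeR). The ratios of Asns were 0.888 (0.856 to 0.921) and 0.874 (0.830 to 0.919) after and without the scratch, with a change of -0.18 ± 0.05 (adjusted p = 0.0101, edgeR).

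The other 5 genes did not pass for genotype. Chac1 had ratios of 0.906 (0.796 to 1.03) after the scratch and 0.843 (0.708 to 1.00) without it. Trib3 was higher in knockout-labelled cells at 1.11 (1.005 to 1.22) and 1.09 (0.959 to 1.24), and Atf3 at 1.06 (0.936 to 1.21) and 1.11 (0.954 to 1.30). Sesn2 was level at 1.01 in both states (0.916 to 1.11 and 0.894 to 1.14). Atf5 was at 1.06 (0.978 to 1.14) after the scratch and 0.753 (0.685 to 0.827) without it.

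**Figure D5:**
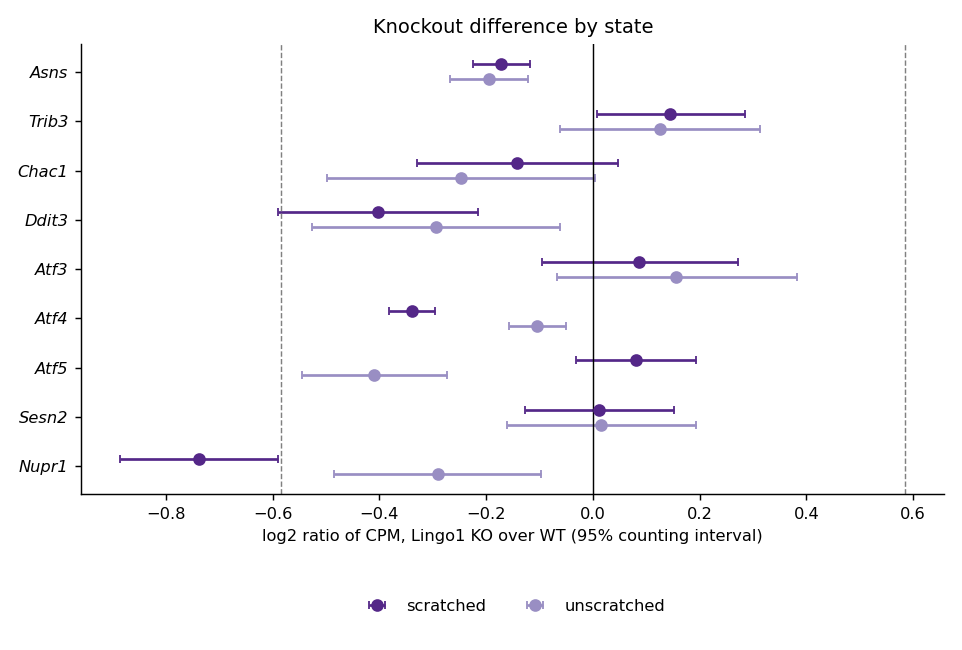
Log2 ratio of CPM, Lingo1 KO over WT as labelled, for each of the 9 genes in scratched and unscratched cells, with exact 95% counting intervals and dashed lines at 1.5-fold. Nupr1 after the scratch lies beyond the line, and Atf5 is at 0.08 after the scratch and -0.41 without it on the log2 scale.

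Among other genes of the pathway, the genotype calls ran in both directions, and they stand beside 14.0% of all tested genes called higher and 12.4% called lower. Of the 28 tested ATF4 targets 7 rose and 1 fell in knockout-labelled cells by edgeR, with a median of 0.07, and the single fall was that of the amino acid transporter Slc38a2 (-0.19 ± 0.06). The cystine transporter gene Slc7a11 rose (0.45 ± 0.09), at 22.6 and 18.2 CPM in scratched and unscratched knockout-labelled cells and 16.6 and 13.2 CPM in scratched and unscratched WT cells. Slc1a4 (0.38 ± 0.10), Eif4ebp1 (0.36 ± 0.07) and the lipoprotein receptor gene Vldlr (0.34 ± 0.07) rose as well. DESeq2 passed 1 of these 28 and limma 1.

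The calls of each list below stand beside 14.0% of all tested genes called higher and 12.4% called lower. Of the 14 kinase and phosphatase genes, Gcn1, the activator of the amino acid sensor GCN2, rose (0.18 ± 0.06), and Eif2ak3 (-0.15 ± 0.06) and the phosphatase subunit gene Ppp1r15b (-0.15 ± 0.05) fell. None of them passed by DESeq2 or limma, and the share of edgeR calls was near that over all tested genes. Of the 19 genes of the IRE1 and ATF6 arms 9 rose and 3 fell, led by Xbp1 (0.78 ± 0.08), the target of IRE1, the disulfide isomerase gene Pdia4 (0.33 ± 0.06) and Ern1 (0.32 ± 0.06), which encodes IRE1 itself, with the chaperone gene Dnajb9 lower (-0.49 ± 0.08), and DESeq2 passed 7 and limma 4. Of the 12 bZIP partners 2 rose and 4 fell, with Cebpa (1.72 ± 0.20) and Fosl1 (0.70 ± 0.22) higher and Jun (-0.59 ± 0.06) and Fos (-0.37 ± 0.06) lower, and DESeq2 passed 1 and limma 2. Cebpa was at 4.41 and 4.73 CPM in scratched and unscratched knockout-labelled cells, against 1.08 and 1.73 CPM in scratched and unscratched WT cells. The CHOP-linked genes gave 2 rises, Ero1a (0.36 ± 0.06) and the survival gene Bcl2l1 (0.36 ± 0.06), and 3 falls. The falls were those of the pro-apoptotic genes Pmaip1 (-0.42 ± 0.11) and Bcl2l11 (-0.27 ± 0.06) and of Mcl1 (-0.16 ± 0.05), a survival gene like Bcl2l1. DESeq2 and limma each passed 2 genes of this list. Of the 8 tested paralogs Sesn3 alone passed by edgeR (0.30 ± 0.06), a share near that over all tested genes, and 0 passed by DESeq2 or limma.

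Whether the scratch response differed between the genotypes was set out as the knockout-labelled response minus the WT response on the log2 scale, and with 1 library per condition there is no test of it. The counting interval of that difference excluded 0 upward for 1 of the 9 genes and downward for 2, against 11.6% of all tested genes upward and 14.9% downward. These counts are near those shares, so nothing particular to the group is read from them. For Atf5 the knockout-labelled response was the larger, by 0.49 (0.32 to 0.66). For Nupr1 the difference was -0.45, a ratio of the responses of 0.734 (95% counting interval 0.622 to 0.867), and for Atf4 it was -0.23, a ratio of 0.850 (0.811 to 0.891). The remaining 6 lay between -0.11 and 0.10. None of the 9 passed the 1.5-fold rule for the difference, which 1.38% of tested genes passed upward and 0.462% downward.

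The genes whose levels over the 4 libraries were most like the group's were Abcb1b, Chst2, Aldh1l2, Psat1 and Psph. Likeness was the Euclidean distance between log2 CPM profiles, centred over the 4 libraries, of each of 9282 other genes with a mean of at least 10 CPM and the median profile of the 9. Distances were 0.08, 0.09, 0.10, 0.10 and 0.14 on the log2 scale. The median profile was 0.17 in scratched and -0.27 in unscratched knockout-labelled cells, and 0.30 in scratched and -0.12 in unscratched WT cells. Among the 9 themselves Chac1 was nearest to it at 0.10, followed by Asns at 0.15 and Sesn2 at 0.17, and Nupr1 was farthest at 0.44. The profile is the median of these same 9, so their nearness is partly built in. Of the 9282 other genes 3 lay nearer than Chac1, 10 than Asns, 17 than Sesn2 and 4151 than Nupr1. For the remaining members this number ran from 71 for Atf4 to 431 for Atf3. Abcb1b was at 18.8 CPM in scratched and 13.7 CPM in unscratched knockout-labelled cells, and at 20.9 CPM in scratched and 16.2 CPM in unscratched WT cells.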

How the data were processed

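The authors deposited raw read counts for 46078 Ensembl genes and RPKM values for 14844 of them, 161 without values. The tools listed per the submitters' processing notes are HTSeq 0.11.3, STAR 2.7.9a, edgeR 3.32.1 and Trimmomatic 0.39, with mm10 as build and no roles stated. No source used here gives the annotation release or the strand setting. Column names carry the genotype and the letter S or N. S was taken for scratched and N for unscratched, and every scratch statement rests on that reading. Names came from the authors' RPKM table where it gives one and otherwise from a reference list, which matched 45143 identifiers. Overlaps were read from the GENCODE M21 annotation of the same assembly.

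Counts were scaled by TMM over all genes, and genes with at least 1 CPM in at least 1 library were tested. Ratios of CPM between single libraries carry exact 95% Clopper-Pearson intervals, which cover counting error only. The 1.5-fold rule used log2 CPM with a prior count of 2, and the difference of responses has a normal interval on log counts. The additive model was fitted in edgeR 4.0.16 (quasi-likelihood, 1 residual degree of freedom, false discovery rate 0.05). The spread of each gene was drawn toward that of the other genes, with a median of 33.6 prior degrees of freedom. The SE was taken from the log2 fold change and the F statistic, so it rests mostly on that shared spread. The model was tested on simulated scratch effects over the same 12348 genes. There 99 of 100 genes changed 1.5-fold and 100 of 100 changed 2-fold were recovered with 8 false calls. The simulation had a fixed spread, no genotype effect and the same scratch effect in both genotypes. Its false calls therefore do not carry over to these libraries, where responses differ between genotypes. The alternatives were DESeq2 1.42.0, limma 3.58.1 on log2 of RPKM plus 0.1, the legacy edgeR fit, total counts, DESeq2 size factors, no filter, a minimum of 5 CPM, a 2-fold minimum, a prior count of 0.5 and the authors' RPKM. R 4.3.3 and Python 3.11.15 were used. No condition had a replicate, so pairs of libraries have no p-value.

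The 9 genes and the lists were chosen with earlier results of these data known. The genes named are the 9, up to 4 genes per list with the largest additive effect among those that passed, for scratch and for genotype, and the 5 genes of nearest profile. Genes named outside the rule are Ddit4, Slc38a2, Mcl1, and marker or list genes given as examples.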

Additional observations from a re-analysis of the deposited data

Results flagged for a closer look

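Atf5 had values of opposite sign in the compared cells under the same contrast, which was common among all tested genes. For the scratch 34.4% of them were higher in both genotypes and 26.9% lower in both, and the rest did not share a sign. Between genotypes 37.4% were higher in both states and 35.4% lower in both. After the scratch Atf5 was higher in knockout-labelled cells, at 0.47 on the log2 scale, and at -0.02 in WT cells, where the counting interval of the ratio spans 1. Likewise the knockout-labelled to WT difference was 0.08 after the scratch and -0.41 without it. Both statements describe the same difference of 0.49 (95% counting interval 0.32 to 0.66), and that difference was not tested, since each value is a single pair of libraries. The unscratched knockout-labelled library, at 27.4 CPM against 36.0 to 38.0 CPM in the other 3, enters both.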

How the results depend on the processing

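The log2 values of the 9 genes in the 4 library comparisons and in the difference of responses kept their sign, except that of Sesn2 between genotypes after the scratch, which was not called and turned to -0.00035 under total counts. Each stayed inside its own counting interval, under total counts, DESeq2 size factors, a prior count of 0.5, no filter, a minimum of 5 CPM and the authors' RPKM. With a 2-fold minimum 0 of the 9 passed in any comparison, so the calls of Nupr1 in WT cells after the scratch and between genotypes after the scratch were lost (0 and 0). The additive calls depended more on the setting. For the scratch, 209 genes were higher and 203 lower, and 6 of the 9 rose. With total counts 137 were higher. Without a filter 9 were higher, 3 lower and 2 of the 9 rose (Asns and Trib3), at 22921 genes tested and 1945 at an unadjusted p under 0.05. DESeq2 called 23 and 18, with 1 of the 9, and limma on RPKM called 0 and 0, with 0 of the 9 and 1660 genes at an unadjusted p under 0.05. For the genotype, where 1733 were higher and 1536 lower, the numbers were 1104 and 846 without a filter, 560 and 408 by DESeq2 and 770 and 612 by limma, with 2, 1 and 2 of the 9 lower. Without a filter more genes were tested, and the prior degrees of freedom of the edgeR fit were 8.42, against 33.6 in the main fit. The cause of these differences was not tested. Adjusted p for Asns after the scratch ranged from 1.51e-09 to 0.119 over 7 alternatives and for Nupr1 between genotypes from 2.49e-05 to 0.0485. Leaving out a library leaves the additive model without residual degrees of freedom, so the 2 within-genotype ratios in the text stand in for it. No paired analysis was possible because the labels give no replicate numbers and each condition has 1 library. With 1 library per condition depth limits only the counting error.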
